A study of Ovis aries with 36 samples.

Results

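Histone deacetylases remove acetyl groups from lysines of histones and of other proteins. The zinc-dependent members are grouped into class I (HDAC1, HDAC2, HDAC3 and HDAC8), class IIa (HDAC4, HDAC5, HDAC7 and HDAC9), class IIb (HDAC6 and HDAC10) and class IV (HDAC11). Class I enzymes sit mostly in nuclear corepressor complexes, class IIa members shuttle between nucleus and cytoplasm and have little catalytic activity of their own, and HDAC6 acts largely on cytoplasmic proteins such as tubulin. Butyrate, a volatile fatty acid (VFA) made by microbes in the rumen and taken up by the epithelium that lines it, inhibits chiefly the class I enzymes, and HDAC3 bound to the corepressor NCOR1 is recruited by the REV-ERB receptors of the circadian clock. Described here are 10 genes of this family, chosen by symbol as the rows HDAC1 to HDAC9 and HDAC11 of a table of 35223 genes. All 10 passed the filter on low counts, as did 22488 genes in all. The genes were chosen for their enzyme class, with earlier results of these data known.

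RNA was sequenced from cultured sheep ruminal epithelial cells, in 36 libraries that form 12 groups of 3. The cells spent 2 h with 100 nM dexamethasone and no serum, a step that sets the clocks of cultured cells to a common phase, before they received 1 of 2 media. The Grain-VFAs medium (Grain) held 16.0 mM butyrate, 20.1 mM propionate, 71.1 mM acetate, 5.3 mM isovalerate, 1.7 mM valerate and 1.1 mM isobutyrate, and the Hay-VFAs medium (Hay) held 9.2, 14.6, 60.8, 3.0, 1.2 and 1.0 mM of the same acids. Total VFA was 115.78 mM in Grain and 89.79 mM in Hay, both at pH 7.2. Cells were harvested at 24, 28, 32, 36, 40 and 44 h, labelled T0, T4, T8, T12, T16 and T20, which covers 20 h and does not hold a repeat of a 24 h cycle. Every acid was higher in Grain, so that the part of butyrate cannot be told apart from that of the other acids or of the total, and cells without added VFA were not analysed here. Nothing in the labels ties the replicates of a group to separate dishes, cultures or animals. The p-values therefore measure the spread between these libraries, which may be technical.

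The libraries held 52.4 to 68.1 M counted reads, 60.3 ± 3.82 M in Grain and 61.4 ± 3.17 M in Hay (mean ± SD, n = 18 each; M, megareads). Levels are given as CPM, read counts scaled to a common library size, and they are not per length, so a level is compared between samples and not between genes. Differences are log2 Grain minus Hay with their standard error (SE), and adjusted p-values are Benjamini-Hochberg values over all genes tested from edgeR's quasi-likelihood test, with a threshold of 0.05. The media differed widely, with 81.8% of all tested genes past the threshold, and the median of all genes was -0.07. Of the epithelial markers KRT4 was almost absent from both media, at 0 in Grain and 0.0024 ± 0.010 CPM in Hay, and fell below the filter. The summed level of all 10 lay at 303 to 707 CPM in Grain and 445 to 536 CPM in Hay. Per gene, 6 of the 9 epithelial markers tested were lower in Grain and 3 higher (median -0.57), with KRT8 at -1.22 and KRT14 at 0.74. Mesenchymal markers summed to 75949 to 128447 CPM in Grain and 68440 to 92569 CPM in Hay. Most of that sum was FN1, at 75025 ± 12418 CPM in Grain and 59792 ± 5022 CPM in Hay. VIM alone held 13166.5 ± 1127 CPM in Grain and 6375 ± 310 CPM in Hay, above the summed epithelial level. The mesenchymal sum thus lay far above the epithelial sum, although the cells are named epithelial, and the reason was not tested. Per gene, 5 mesenchymal markers were higher in Grain and 5 lower (median -0.02), with VIM at 1.04 and PDGFRA at -0.80. Endothelial and leukocyte markers summed to at most 11.0 and 2.33 CPM. Smooth muscle markers summed to 373 to 907 CPM in Grain and 197 to 957 CPM in Hay, with 4 of 5 higher in Grain (median 0.76), and DES at 74.1 ± 17.1 against 8.71 ± 2.92 CPM. Proliferation markers summed to 172 to 254 CPM in Grain and to 80.7 to 95.7 CPM in Hay, with 6 of 6 higher in Grain. These shifts accompany every medium difference below and their part in it was not tested. In such bulk samples, fewer cells of a type and less RNA per cell cannot be told apart.

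Averaged over the 6 time points, 8 of the 10 deacetylases differed between the media. HDAC6, HDAC8, HDAC3, HDAC5 and HDAC1 were lower in Grain, in that order of size, and HDAC7, HDAC4 and HDAC2 were higher, although HDAC2 turned to lower in Grain when libraries were scaled by their totals alone. HDAC9 and HDAC11 did not pass the test. Among all genes tested, 81.8% passed, 37.9% higher and 43.9% lower in Grain, so 3 higher and 5 lower of 10 lay near that background. With scaling by library totals alone the split was 2 higher and 7 lower, against 31.4% and 51.0% of all genes. The median over the 10 was -0.08, against -0.07 over all genes. Sizes were mostly modest: against a minimum difference of 0.5 on the log2 scale, HDAC6 was the 1 member that passed, while 38.5% of all genes did.

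**Figure D1:**
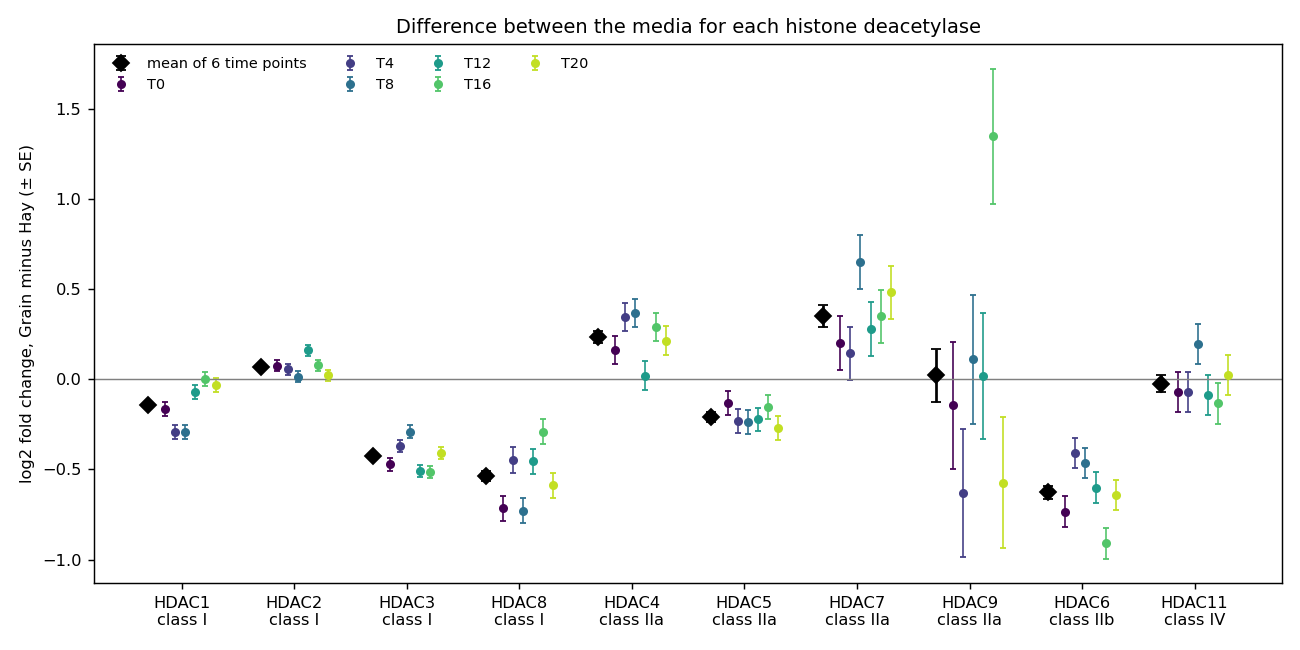
Log2 difference Grain minus Hay for each of the 10 deacetylases (diamonds: mean of the 6 time points; coloured dots: single time points; bars: SE; 3 libraries per group). HDAC3, HDAC5, HDAC6 and HDAC8 lie below 0 at every time point, and HDAC9 spreads from -0.63 at T4 to 1.35 at T16. The small positive mean of HDAC2 (0.07) turns to -0.05 under scaling by library totals alone.

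Among the class I genes, HDAC3, the catalytic subunit of the NCoR corepressor complex, separated the media fully. Its level ran from 79.4 CPM at the lowest through a median of 88.0 to 97.1 CPM at the highest in the 18 Grain libraries, and from 103 through 119 to 139 CPM in the 18 Hay libraries. Every Grain library lay below every Hay library. The means were 88.5 ± 5.19 and 119 ± 11.4 CPM (SD, n = 18), which made HDAC3 25.7% lower in Grain (-0.43, SE 0.014, adjusted p = 4.25e-26, edgeR). The difference was past the threshold at each of the 6 time points, from -0.29 (SE 0.034) at T8 to -0.51 (SE 0.034) at T16.

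HDAC8, a class I enzyme that acts outside the large corepressor complexes and deacetylates the cohesin subunit SMC3, also separated the media. It ran from 8.52 through a median of 10.1 to 12.3 CPM in Grain and from 12.7 through 14.6 to 15.8 CPM in Hay, again with no overlap of the 18 and 18 libraries. It was 31.1% lower in Grain (10.0 ± 0.943 against 14.5 ± 0.861 CPM, SD, n = 18), a difference of -0.54 (SE 0.029, adjusted p = 4.62e-19, edgeR). The size varied over the time course: at T8 the Grain libraries held 8.77, 8.52 and 9.71 CPM and the Hay libraries 14.5, 15.4 and 14.8 CPM. At T16 they held 10.9, 12.3 and 10.5 CPM against 14.2, 12.7 and 14.3 CPM, so the nearest libraries of the media almost met there. The differences at those times were -0.73 (SE 0.071) and -0.29 (SE 0.071), the widest and the narrowest of the 6.

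HDAC1 and HDAC2, the paired catalytic subunits of the NuRD, SIN3 and CoREST complexes, differed little and in opposite directions. HDAC1 ran from 49.0 through a median of 58.6 to 62.6 CPM in Grain and from 56.1 through 62.3 to 66.7 CPM in Hay, and the media overlapped. It was 9.36% lower in Grain (-0.14, SE 0.016, adjusted p = 3.93e-10, edgeR). HDAC2 ran from 188 through 198 to 219 CPM in Grain and from 178 through 191 to 200.4 CPM in Hay, also with overlap. Its level was 4.72% higher in Grain (0.07, SE 0.012, adjusted p = 8.35e-06, edgeR), yet the difference was -0.05 (SE 0.011, adjusted p = 4.42e-05) with libraries scaled by their totals alone. That scaling moved the median of all genes by -0.12, which is larger than the HDAC2 difference, so its direction rests on the scaling.

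The HDAC1 difference was concentrated in the early time points. In Grain its libraries held 54.9, 59.4 and 57.3 CPM at T0, 49.4, 51.5 and 53.0 CPM at T4, and 49.0, 49.9 and 50.8 CPM at T8. They then held 62.2, 61.8 and 60.6 CPM at T12, 59.5, 62.6 and 58.4 CPM at T16, and 61.4, 61.1 and 58.7 CPM at T20. The 6 Grain libraries of T4 and T8 were thus the lowest of all 36, and all 9 later Grain libraries lay above all 6 of them. The Hay libraries stayed between 59.9 and 66.7 CPM apart from 1 T16 library at 56.1 CPM. The difference was -0.16 at T0, -0.29 at T4 and -0.29 at T8 (SE 0.039 each), with adjusted p of 0.000405, 3.62e-08 and 4.08e-08 (edgeR). At T12, T16 and T20 it was -0.07, 0.0033 and -0.03, none past the threshold. With scaling by library totals alone it was also past it at T12, T16 and T20, at T16 as -0.14.

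**Figure D2:**
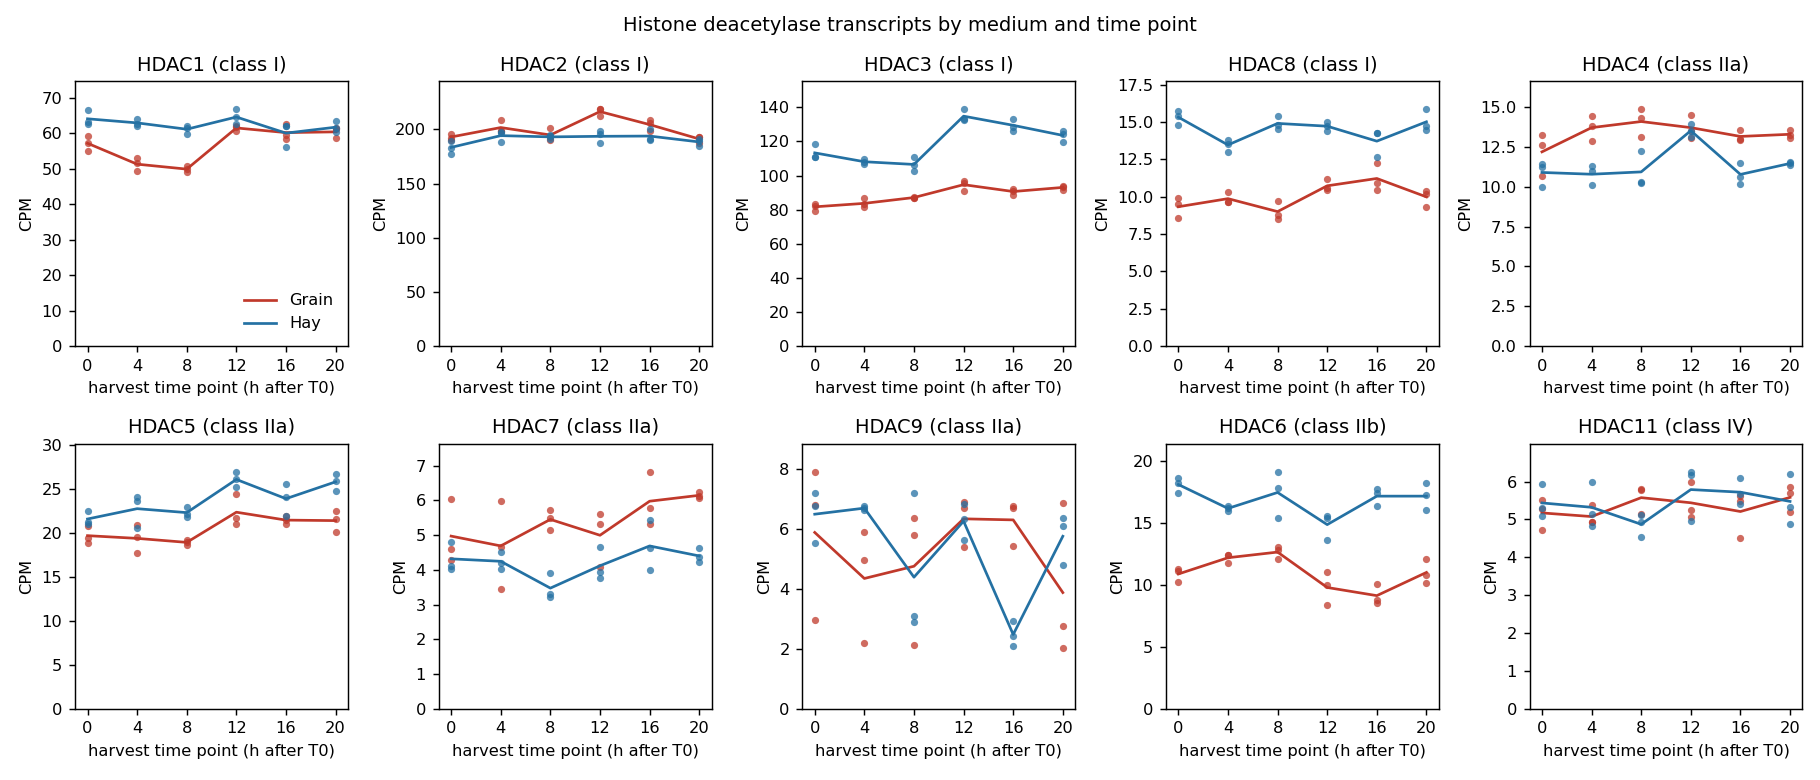
Level in CPM (y axis, from 0) of each deacetylase against harvest time T0 to T20 in h (x axis) in Grain (red) and Hay (blue); points are libraries and lines join the means of 3. In HDAC3, HDAC6 and HDAC8 the 2 media do not meet. In HDAC1 they lie furthest apart at T4 and T8, are also apart at T0 and T12, and meet at T16. In HDAC9 single libraries drop to 2.02 to 3.09 CPM in both media.

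Class IIa genes encode corepressors of MEF2 transcription factors that are held in the cytoplasm when kinases phosphorylate them and 14-3-3 proteins bind. They did not move as a group: HDAC4 and HDAC7 were higher in Grain, HDAC5 was lower, and HDAC9 did not pass the test. HDAC4 ran from 10.7 through a median of 13.3 to 14.9 CPM in Grain and from 10.0 through 11.3 to 13.9 CPM in Hay, with overlap. It was 17.5% higher in Grain (0.23, SE 0.032, adjusted p = 3.69e-08, edgeR). The media met at T12, where the Hay libraries held 13.5, 13.9 and 13.2 CPM against 14.5, 13.1 and 13.5 CPM in Grain, a difference of 0.02 (SE 0.078). At T4 and T8 it was 0.35 and 0.37 (SE 0.079 and 0.078), and it was also past the threshold at T16 and T20, where the calls were lost with scaling by library totals alone. At T20 the call was further lost without Grain T20 replicate 1 or Hay T20 replicate 2.

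HDAC5 lay lower in Grain by a similar amount throughout. Its level ran from 17.7 through a median of 20.8 to 24.4 CPM in Grain and from 20.5 through 23.8 to 26.9 CPM in Hay. The libraries overlapped across times, but at 5 of the 6 times all 3 Grain libraries were below all 3 Hay libraries, the exception being T4. HDAC5 was 13.5% lower in Grain (-0.21, SE 0.027, adjusted p = 6.44e-09, edgeR), from -0.13 (SE 0.066, adjusted p = 0.0764) at T0 to -0.27 (SE 0.065) at T20. The T0 difference passed under 6 of 12 other settings, at the lowest with scaling by library totals alone (adjusted p = 0.000415).

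HDAC7, the class IIa member best known from endothelial cells and thymocytes, had the largest rise of the family. In Grain it ran from 3.44 through a median of 5.55 to 6.82 CPM and in Hay from 3.23 through 4.17 to 5.43 CPM, and the media overlapped. It was 27.5% higher in Grain (5.37 ± 0.869 against 4.21 ± 0.531 CPM, SD, n = 18), or 0.35 (SE 0.061, adjusted p = 2.68e-06, edgeR). The widest difference was at T8, with 5.49, 5.15 and 5.72 CPM in Grain and 3.90, 3.29 and 3.23 CPM in Hay (0.65, SE 0.15, adjusted p = 0.000296). T16 and T20 were past the threshold as well, with 0.35 and 0.48 (SE 0.15 each), the T16 call being lost with scaling by library totals alone. HDAC7 shares annotated sequence with SLC48A1, a heme transporter gene with 1721 to 2229 counts per library, and with 2 long noncoding RNAs, and since the kit did not keep strand their reads may be mixed. SLC48A1 itself differed by 0.12.

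HDAC6, the class IIb enzyme that deacetylates tubulin and takes part in handling misfolded protein, had the largest fall. It ran from 8.38 through a median of 11.1 to 13.1 CPM in Grain and from 13.6 through 16.9 to 19.1 CPM in Hay, with all 18 Grain libraries below all 18 Hay libraries. Its mean of 11.0 ± 1.45 CPM in Grain was 35.3% below the 16.9 ± 1.40 CPM in Hay (SD, n = 18), a difference of -0.63 (SE 0.035, adjusted p = 9e-19, edgeR). Full separation of the media over the time course was thus seen in 3 of the 10 members, HDAC3, HDAC8 and HDAC6, all lower in Grain. Among all genes tested, 11.9% had every Grain library below every Hay library and 15.4% had every one above, a position that no deacetylase took.

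The HDAC6 difference was narrowest at T4 and T8 and widest at T16. At T0 the Grain libraries held 10.2, 11.3 and 11.2 CPM against 18.3, 17.5 and 18.7 CPM in Hay, the next widest difference (-0.73, SE 0.085). At T4 the Grain libraries held 12.4, 12.4 and 11.8 CPM against 16.2, 16.0 and 16.4 CPM in Hay, and at T8 12.1, 13.1 and 12.9 CPM against 17.9, 19.1 and 15.5 CPM. At T16 they held 10.1, 8.56 and 8.82 CPM against 16.4, 17.4 and 17.7 CPM. The difference went from -0.41 (SE 0.084) at T4 to -0.91 (SE 0.086) at T16, where Grain was 46.8% lower.

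HDAC11, the sole class IV enzyme, did not pass the test in either direction. Its level was 5.34 ± 0.414 CPM in Grain and 5.44 ± 0.544 CPM in Hay (SD, n = 18), from 4.51 to 6.00 and from 4.55 to 6.25 CPM. The difference was -0.02 (SE 0.045, adjusted p = 0.62, edgeR), and none of the single time points passed. With scaling by library totals alone the mean difference was -0.15 (adjusted p = 0.00418). Under 1 of 12 other settings HDAC11 passed at T12, and under 1 of 12 at T16.

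HDAC9 stood apart from the other members in how its libraries spread. In Grain, the libraries held 2.96, 6.80 and 7.90 CPM at T0, 5.89, 4.97 and 2.18 CPM at T4, and 6.35, 2.13 and 5.79 CPM at T8. They held 6.70, 6.92 and 5.40 CPM at T12, 5.43, 6.71 and 6.77 CPM at T16, and 6.87, 2.75 and 2.02 CPM at T20. Replicates of 1 group could thus differ by more than the media did. In Hay, the libraries held 7.19, 6.77 and 5.52 CPM at T0, 6.75, 6.62 and 6.72 CPM at T4, and 2.89, 7.20 and 3.09 CPM at T8. They held 6.32, 5.62 and 6.84 CPM at T12, 2.93, 2.42 and 2.08 CPM at T16, and 4.80, 6.36 and 6.12 CPM at T20. The values lay at a low and a high level with nothing between: 10 libraries at 2.02 to 3.09 CPM (125 to 211 counts) and 26 at 4.80 to 7.90 CPM (282 to 505 counts).

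That gap spanned 0.64 on the log2 scale, whereas the widest gap between neighbouring libraries was 0.043 to 0.18 in the other 9 members. The low level held 5 Grain and 5 Hay libraries, and the high level 13 of each. It took in 1 Grain library each at T0, T4 and T8, 2 at T20, 2 Hay libraries at T8 and all 3 at T16. The SD within groups was 0.54 on the log2 scale, larger than in 79.7% of tested genes, against 0.035 to 0.19 in the other members. HDAC9 overlaps 2 small nuclear RNA genes with 0 to 3 counts per library and a tRNA gene.

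**Figure D3:**
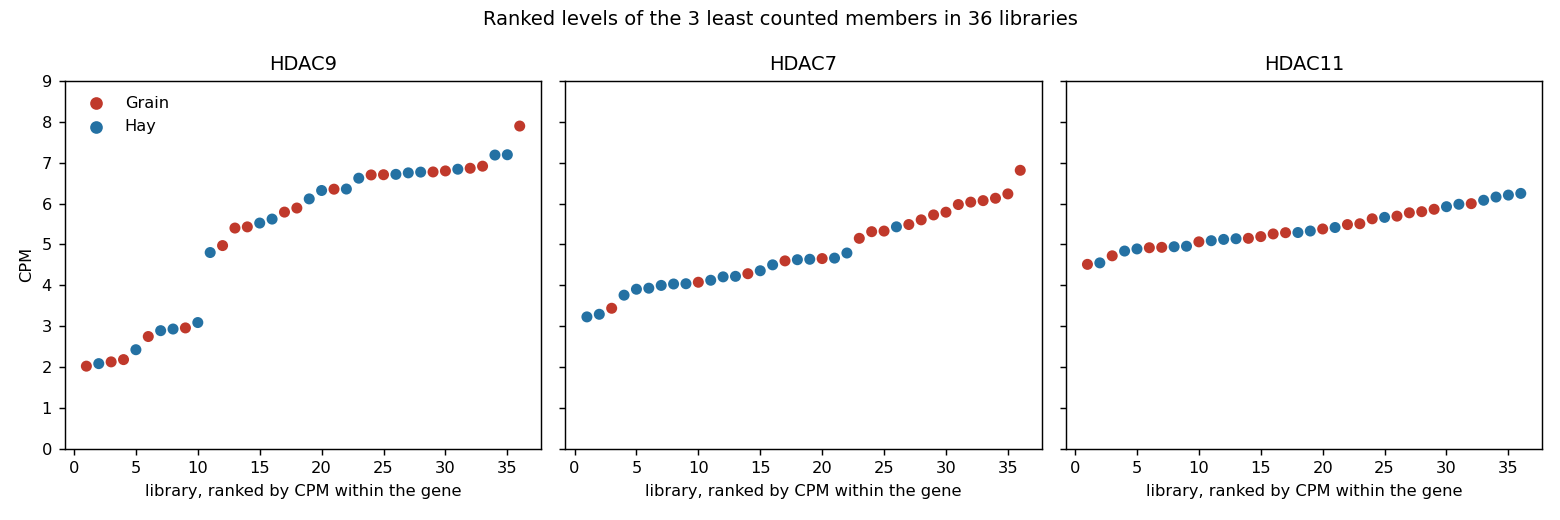
Levels in CPM (y axis) of HDAC9, HDAC7 and HDAC11 with the 36 libraries ranked from lowest to highest (x axis; red Grain, blue Hay). HDAC9 steps from 3.09 to 4.80 CPM after its 10 lowest libraries, which come from both media, while HDAC7 and HDAC11, climb without such a step.

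The mean difference in HDAC9 was 0.02 (SE 0.15, adjusted p = 0.903, edgeR), with 5.25 ± 1.95 CPM in Grain and 5.35 ± 1.81 CPM in Hay (SD, n = 18). At T16, where all 3 Hay libraries were at the low level and all 3 Grain libraries at the high one, it was 1.35 (SE 0.38, adjusted p = 0.00211). No other single time point passed, with -0.63 (SE 0.36) at T4 and -0.58 (SE 0.36) at T20. The T4 difference did pass when the 6 libraries of that time were fitted alone (adjusted p = 0.0297). The T20 value became -1.28 (adjusted p = 0.00503) without Grain T20 replicate 1, the 1 Grain library of that time at the high level.

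At single time points 5 to 8 of the 10 members were past the threshold, against 56.8% to 64.3% of all genes. With only 10 members, these counts lay near that background. At T0, 5 members passed, 1 higher and 4 lower in Grain, against 62.8% of all genes, 31.6% higher and 31.2% lower. At T4, 6 passed, 1 higher and 5 lower, against 57.8% (29.9% and 27.9%), and at T8, 7 passed, 2 higher and 5 lower, against 56.8% (29.5% and 27.2%). At T12, 5 passed, 1 higher and 4 lower, against 64.3% (30.7% and 33.6%). T16 had the most, 8 members with 4 higher and 4 lower, against 62.7% (30.2% and 32.5%), and at T20, 6 passed, 2 higher and 4 lower, against 58.9% (29.7% and 29.2%). The 3 Grain libraries lay wholly apart from the 3 Hay libraries in 6, 7, 8, 6, 6 and 6 of the 10 members at the successive times. Among all genes the share so separated was 67.8%, 64.4%, 64.1%, 68.0%, 65.9% and 64.5%. The count at T16 fell to 5 without Grain T16 replicate 1, Hay T16 replicate 1 or Hay T16 replicate 2, each of which took HDAC2, HDAC5 and HDAC7 out. HDAC2 and HDAC7 were also lost there without Grain T16 replicate 2, and HDAC5 without Grain T16 replicate 3, Grain T12 replicate 2 or 3 or Grain T20 replicate 2. HDAC3, HDAC6 and HDAC8 were past the threshold as lower in Grain at all 6 times, as were 18.0% of all genes. HDAC5 was also lower at all 6 times, but past the threshold at 5 of them. HDAC2 passed at T0, T12 and T16 as higher in Grain, with 0.16 (SE 0.030) at T12, but each of these turned negative with scaling by library totals alone. Its T0 call was also lost without Grain T0 replicate 1 or 2, Hay T0 replicate 2 or 3, any of the 3 Grain T12 libraries or Grain T20 replicate 2. A further count took in 12 other settings per time, namely other processing and leaving out each library of that time only. Of these, the HDAC2 call held under 3 of 12 at T0 and under 4 of 12 at T16. At T16 the call held under 6 of 12 for HDAC5 and under 7 of 12 for HDAC7.

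Whether the medium difference itself changed over time was tested with 5 contrasts between the time points. It did for HDAC1 (adjusted p = 2.08e-05, edgeR), HDAC3 (0.00095), HDAC8 (0.00278), HDAC6 (0.01) and HDAC9 (0.028), which is 5 of 10 against 32.6% of all genes. HDAC2 and HDAC4 did not pass (0.0613 and 0.0897), nor did HDAC5, HDAC7 and HDAC11. The 5 did not share a course: HDAC1 and HDAC8 differed most at T8 or before, HDAC6 and HDAC3 most at T16. The HDAC9 call was lost without Grain T16 replicate 2 or 3 or Hay T16 replicate 2 or 3 (adjusted p up to 0.0885).

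Within Grain, 6 members changed over time (HDAC1, HDAC2, HDAC3, HDAC8, HDAC5 and HDAC6), against 51.5% of all genes. Within Hay, 4 did (HDAC3, HDAC4, HDAC5 and HDAC9), against 35.2%. HDAC9 did not pass in Hay without Hay T16 replicate 2 or 3 (adjusted p up to 0.106). With scaling by library totals alone the members exchanged: HDAC8 (adjusted p = 0.189) and HDAC5 (0.641) were lost in Grain and HDAC4 and HDAC7 gained. In Hay, HDAC4 (0.0801) and HDAC5 (0.0839) were lost and HDAC1, HDAC2, HDAC8 and HDAC6 gained. Hay HDAC3 had the clearest course, with 111, 111 and 118 CPM at T0, 110, 107 and 108 CPM at T4, and 103, 111 and 106 CPM at T8. The later libraries held 133, 133 and 139 CPM at T12, 126, 129 and 133 CPM at T16, and 126, 120 and 125 CPM at T20. All 9 later libraries lay above all 9 earlier ones. In Grain, HDAC3 also had its lowest mean at T0 (79.4, 82.3 and 83.3 CPM) and its highest at T12 (97.1, 91.1 and 95.8 CPM).

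A wave of fixed 24 h period was fitted in each medium, its amplitude being the height of the peak above the mean on the log2 scale. In Grain it passed for 6 members, against 31.8% of all genes, and in Hay for 2, against 20.7%. HDAC3 passed in both, with an amplitude of 0.10 (SE 0.022) and a peak at T14.6 (SE 0.86 h) in Grain and 0.16 (SE 0.022) and T15.7 (SE 0.50 h) in Hay. HDAC5 passed in both with amplitudes of 0.11 (SE 0.033 and 0.032), but in Hay its adjusted p was 0.0442 and it passed under 20 of the 42 other settings. The remaining Grain waves peaked at T17.3 (HDAC1), T11.8 (HDAC2), T15.5 (HDAC8) and T4.28 (HDAC6). HDAC6 thus peaked early where the other 5 peaked from T11.8 to T17.3, with an amplitude of 0.20 (SE 0.043) and an adjusted p of 0.00217. With scaling by library totals alone HDAC3, HDAC8 and HDAC5 no longer passed in Grain. Fitted on the 18 Grain libraries alone, HDAC2 (adjusted p = 0.0688) and HDAC8 did not pass. HDAC8 was also lost there without Grain T16 replicate 2, and HDAC5 without Grain T4 replicate 3.

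The wave differed between the media for HDAC1 (adjusted p = 0.00206, edgeR), 1 of 10 against 11.3% of all genes. Its amplitude was 0.15 (SE 0.022) in Grain and 0.02 (SE 0.022) in Hay. In Hay the HDAC1 wave did pass with scaling by library totals alone (adjusted p = 0.015, edgeR), the 1 of 42 other settings in which it did. HDAC6 had 0.20 (SE 0.043) in Grain and 0.08 (SE 0.042) in Hay and did not pass for the difference (adjusted p = 0.0695), although it did without Grain T20 replicate 1, Hay T8 replicate 1 or Hay T8 replicate 2.

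For 3 members, the genes with the most similar group means were sought among 10571 genes that reached 5 CPM in either medium. Genes without a symbol or with only a LOC identifier were left out of this search. The measure was Pearson's r over the 12 group means of log2 CPM. The group means share their libraries and scaling, so r is a description. For HDAC7, HDAC6 and the pairs of members, the mean of each medium was kept. There r takes in the difference between the media, and a high r does not show a shared course over time. Closest to HDAC7, the member with the largest rise, were PISD, a phosphatidylserine decarboxylase (0.89), PLPPR3 (0.89) and ZFYVE19 (0.88). HDAC6, with the largest fall, had its highest r with WIF1, a secreted Wnt inhibitor (0.99), GDA, a guanine deaminase (0.99), and RHBDD1, a rhomboid protease (0.99). Closest to HDAC1, after the mean of each medium was taken off, were SETD5 (0.97), the ribosome assembly factor MDN1 (0.97) and the protocadherin PCDH9 (0.96). Among the members themselves the highest r over the 12 means was that of HDAC3 with HDAC5 (0.90), followed by HDAC3 with HDAC8 (0.89). Over the deviations of single libraries from their group means, r was 0.26 for HDAC3 with HDAC5 and 0.12 for HDAC3 with HDAC8.

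The partners of the class I enzymes were read in the same comparison, the mean of the 6 times, in which 37.9% of all genes were higher and 43.9% lower in Grain. Each count of a list below stands against those shares. SIN3 complex genes were mostly higher in Grain, with 12 higher, 2 lower and 1 not past the threshold of 15 and a median of 0.50, as against -0.07 over all genes. ING2 (1.27, SE 0.035) and ING1 (1.22, SE 0.030), which read histone methylation for the complex, had the largest rises, and SAP18 (-0.30, SE 0.014) and SAP30L (-0.25, SE 0.013) fell. Of 11 genes of the NuRD complex, which joins deacetylation to nucleosome remodelling, 7 were higher and 1 lower (median 0.32). MTA1 rose from 25.2 ± 2.67 to 63.6 ± 5.92 CPM (1.34, SE 0.021), GATAD2B rose by 0.63 (SE 0.015) and MTA3 fell by 0.28 (SE 0.053). CoREST genes had a median of -0.09, near that of all genes, with 2 higher and 6 lower of 9. PHF21A fell (-0.41, SE 0.018), while HMG20B rose (0.42, SE 0.019). Thus genes of the complexes that hold HDAC1 and HDAC2 ranged well beyond the differences of the 2 enzymes themselves.

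For HDAC3, 5 of 6 listed genes of the NCoR complex were in the table under the listed symbol, with 3 higher and 2 lower (median 0.18). GPS2 (0.83, SE 0.036) rose, and CORO2A (-0.72, SE 0.037) and TBL1XR1 (-0.40, SE 0.014) fell. Both REV-ERB genes were higher in Grain: NR1D1 at 2.31 ± 0.395 against 1.48 ± 0.289 CPM (0.64, SE 0.087) and NR1D2 at 42.4 ± 5.34 against 37.1 ± 2.03 CPM (0.18, SE 0.019). HDAC3 itself was lower, so enzyme and partners did not move in 1 direction. In the small MiDAC complex 1 gene was higher and 2 lower of 4 (median -0.13), or 0 and 3 with scaling by library totals alone, with TRERF1 at -1.04 (SE 0.044) and MIDEAS at -0.24 (SE 0.023).

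Among the partners of class IIa, the MEF2 factors were 3 higher and 1 lower of 4 (median 0.10). MEF2C fell by 0.52 (SE 0.033), and MEF2D (0.12, SE 0.021) and MEF2A (0.07, SE 0.015) rose, although with scaling by library totals alone these stood at -0.01 (MEF2D) and -0.05 (MEF2A) and the list at 1 higher and 2 lower. The 12 kinases that phosphorylate class IIa enzymes divided evenly, 6 higher and 6 lower (median 0.07, or -0.06 with scaling by library totals alone), with CAMK2G (0.57, SE 0.016) and SIK3 (0.53, SE 0.019) at the upper end and CAMK2D (-1.09, SE 0.017) and CAMK1D (-0.54, SE 0.028) at the lower. Of 7 genes for 14-3-3 proteins, 5 were lower and 1 higher (median -0.32). YWHAB had 193 ± 21.0 CPM in Grain and 500.3 ± 61.4 CPM in Hay (-1.38, SE 0.013), and SFN fell by 0.95 (SE 0.045). YWHAH was the 1 that rose, from 85.1 ± 15.7 to 173 ± 6.90 CPM (1.05, SE 0.012).

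**Figure D4:**
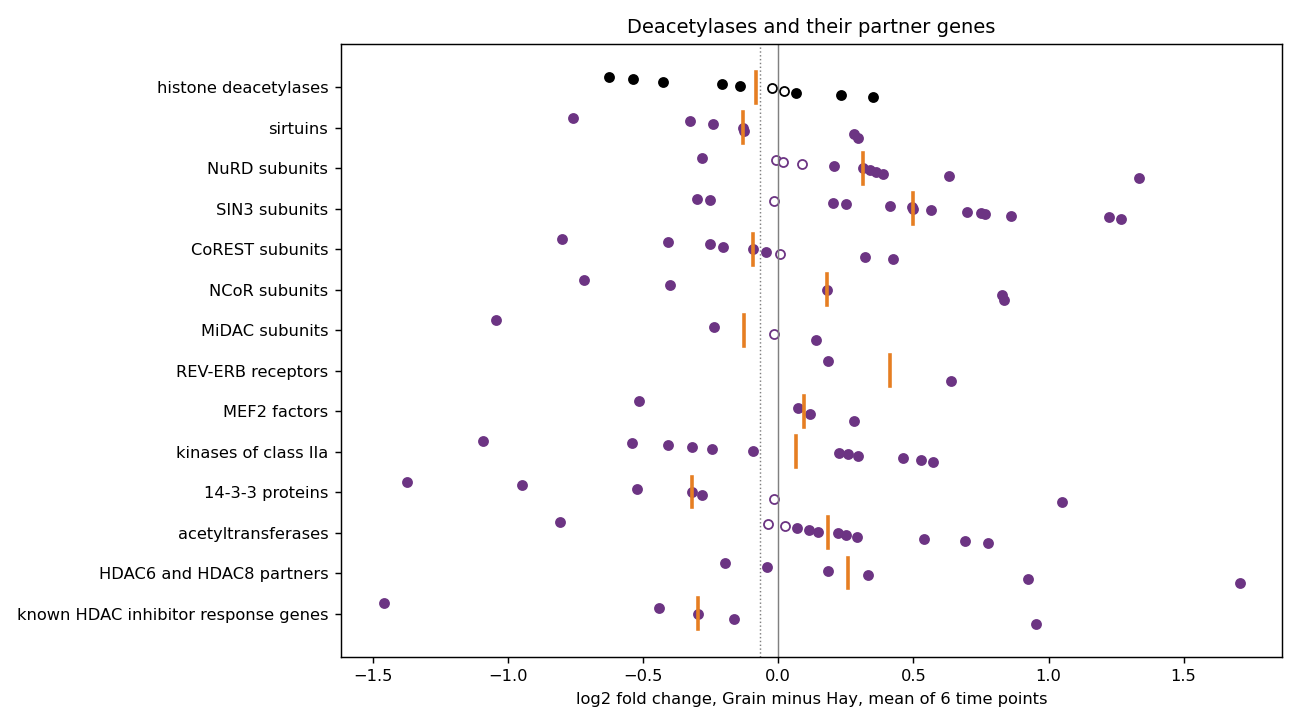
Log2 difference Grain minus Hay, mean of 6 time points, of each gene in the lists of deacetylase partners and related enzymes (filled: past the threshold; open: not; orange line: median of the list; dotted line: median of all genes, -0.07; the deacetylases in black). The deacetylases lie between -0.63 and 0.35 while SIN3 genes lie mostly to the right (median 0.50) and 14-3-3 genes mostly to the left (median -0.32).

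Genes tied to the acetylated targets of HDAC6 and HDAC8 were 4 higher and 2 lower of 6 (median 0.26). ESCO2, which acetylates cohesin in S phase, rose from 3.19 ± 0.230 to 10.6 ± 2.46 CPM (1.71, SE 0.046), and the cohesin subunit SMC1A rose by 0.93 (SE 0.015). ESCO1 (-0.20, SE 0.032) and RAD21 (-0.04, SE 0.017) fell. The proliferation markers, 6 of 6 higher in Grain, moved with ESCO2, and their part was not tested.

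The enzymes of opposite or like activity were also read. Of 12 histone acetyltransferases, 9 were higher and 1 lower (median 0.18), or 6 and 4 with scaling by library totals alone, with KAT8 (0.78, SE 0.026) and HAT1 (0.69, SE 0.017) highest and KAT2A at -0.81 (SE 0.044). The 7 sirtuins, which are deacetylases that depend on NAD rather than zinc, were 2 higher and 5 lower (median -0.13, against -0.07 over all genes). SIRT5, the mitochondrial desuccinylase, fell by 0.76 (SE 0.030) and SIRT4 by 0.33 (SE 0.035), while SIRT7 (0.29, SE 0.043) and SIRT2 (0.28, SE 0.023) rose. Of 7 genes listed as known to respond to deacetylase inhibitors, 5 were found by symbol. TXNIP had 507 ± 60.1 CPM in Grain and 1387 ± 95.5 CPM in Hay (-1.46, SE 0.013), and CDKN1A, the cell cycle inhibitor whose gene is widely used as a readout of such inhibitors, was lower in Grain as well (-0.44, SE 0.020). TYMS, which inhibitors are known to repress, was higher (0.95, SE 0.032). The remaining genes, given to complete the list, were CTPS1 (-0.30, SE 0.021), which inhibitors are also known to repress, and GSN (-0.16, SE 0.014), which they are known to raise. The list thus joins genes of opposite known response, so its count of 4 lower and 1 higher does not say how many genes followed that response. TYMS and GSN lay opposite to the response stated for them, and CTPS1 lay with it. Inhibition of the enzymes themselves was not measured.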

How the data were processed

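The deposited table held a raw read count per gene and library, made by the authors as whole numbers without normalisation. Per the submitters' processing notes, the tools were HISAT2 2.2.1, StringTie 2.1.5 and SAMtools 1.20. The genome build, and which tool wrote the table, is not given in the sources used here. RNA was extracted with TRNzol and made into TruSeq RNA v2 libraries, which do not keep strand, per the labels' protocols. Groups and library columns were taken from the sample titles.

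Genes were filtered with filterByExpr (minimum count 10, minimum total 15) and scaled by TMM. edgeR 4.0.16 quasi-likelihood tests (limma 3.58.1, R 4.3.3) were run on all 36 libraries and 22488 genes, with a mean per group, or with a cosine and sine of 24 h period per medium. Tests are two-sided. Depth of 52.4 to 68.1 M counts sets the precision: HDAC9 had 125 to 505 counts per library. Of 36 replicate pairs none differed by as little as counting noise (4.86 to 25.7 chi-square units per degree of freedom). Scripts were tested on simulated counts.

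The members and lists were chosen with earlier results of these data known. By rule, all 10 members were named, NR1D1 and NR1D2, and in each list up to 2 genes with the largest rise and 2 with the largest fall among those past the threshold with at least 5 CPM in a medium. Also named were the 3 compared genes with the highest r to the members with the largest rise, the largest fall and the smallest interaction p. Some genes that this rule names are not reported here. YWHAB, TXNIP, TYMS, CAMK2D, CAMK1D, KAT2A, MEF2C, MEF2D, TBL1XR1, PHF21A, HMG20B, MIDEAS, ESCO1, SIRT4 and SIRT5 overlap another annotated gene in RefSeq (assembly ARS-UI_Ramb_v3.0), so their counts are uncertain. Alternatives were DESeq2 1.42.0, its size factors in edgeR, no filter, a replicate block, fewer libraries in the fit, a minimum difference, scaling by library totals alone (chosen after the data were seen) and leaving out each library.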

Additional observations from a re-analysis of the deposited data

Results flagged for a closer look

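The difference between the media changed over the time course in 5 members by the edgeR test of the difference itself. The adjusted p was 2.08e-05 for HDAC1, whose difference was -0.29 at T8 and 0.0033 at T16. For HDAC3 it was 0.00095, with -0.29 at T8 and -0.51 at T16. It was 0.00278 for HDAC8, with -0.73 at T8 and -0.29 at T16, so that HDAC3 and HDAC8 ran opposite ways between those times. In HDAC6 it was 0.01, with -0.41 at T4 and -0.91 at T16. HDAC9 had 0.028, with -0.63 at T4 and 1.35 at T16, and lost the call when any 1 of 4 T16 libraries was left out. The calls of HDAC1, HDAC3, HDAC8 and HDAC6 held under all 41 other settings run.

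The 24 h wave of HDAC1 differed between the media (adjusted p = 0.00206, edgeR), with an amplitude of 0.15 in Grain and 0.02 in Hay. This call held under all 41 other settings. The weak wave in Hay rests on the scaling, since it passed there with scaling by library totals alone (adjusted p = 0.015, edgeR). Groups of 3 libraries were not screened for single outlying samples.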

How the results depend on the processing

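Scaling by library totals alone moved the median of all genes from -0.07 to -0.19 and reversed HDAC2, to -0.0795 at T0, -0.0333 at T12, -0.0707 at T16, -0.0867 at T20 and -0.0548 over all times, and HDAC1 at T16, to -0.144. Of these, HDAC2 at T20 and HDAC1 at T16 had not been past the threshold before. Further values not past the threshold also changed sign, among them HDAC2 to -0.0276 at T4 and -0.0311 at T8, and HDAC4 to -0.174 at T12. It left 3 members with a 24 h component in Grain, not 6. A minimum log2 difference of 0.5 left 1 member, not 8, in the mean comparison, since it tests a larger size. For the 24 h component in Hay, 1 member (HDAC3) was left, not 2, with DESeq2's size factors, without the filter, with the 18 Hay libraries alone or with the replicate block. The cause was not tested. HDAC5 at T0 passed under 6 of 12 other settings, HDAC9 at T4 under 1, and HDAC11 at T12 and at T16 under 1 each. HDAC4 passed at T0 without Grain T0 replicate 1, HDAC7 at T12 without Grain T12 replicate 2 and HDAC1 at T12 without Hay T12 replicate 2. Leaving out each library gave 8 to 8 members for the mean. At single times it gave 4 to 6 at T0, 6 to 6 at T4, 7 to 7 at T8, 5 to 6 at T12, 5 to 8 at T16 and 5 to 6 at T20. It gave 4 to 6 for the interaction, 6 to 7 for change over time in Grain, 3 to 5 for that in Hay, 5 to 6 for the 24 h component in Grain, 1 to 2 for that in Hay and 1 to 2 for its difference.

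Grain and Hay libraries of the same time and replicate number did not deviate together (18 pairs, r from -0.04 to 0.03). Of 18 Grain libraries, 6 correlated best with the Hay library of their own number. Libraries of the same number at different times were not correlated with each other. With the replicate block, 8 members differed in the mean and 5 in the interaction, and the Hay count above was the 1 count that changed. The lowest member counts, 125 to 211 for HDAC9, carry the widest counting error.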

Other observations

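HDAC10, the second class IIb gene, is not among the 10 genes and was added after its values were seen. It was barely counted, with 45 to 129 counts per library, and lay at 1.18 ± 0.259 CPM in Grain and 1.65 ± 0.253 CPM in Hay (SD, n = 18). The difference was -0.48 (SE 0.092, adjusted p = 1.45e-05, edgeR), in the direction of HDAC6, and the libraries of the media overlapped.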
